A study of Rattus norvegicus and Bos taurus with 6 samples.

Results

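The genes described here are 10 genes of the thermogenic program of brown fat, and they were followed in 6 single-nucleus RNA sequencing libraries of rat and cow adipose tissue. They were taken by symbol: Ucp1, Cidea, Ppargc1a, Ppargc1b, Dio2, Prdm16, Elovl3, Cpt1b, Esrrg and Esrra. All 10 were found by symbol in each library, among 38697 annotated genes in the 4 rat libraries made with the Parse chemistry, 25629 in the rat library made with the 10x chemistry and 36075 in the cow library.

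Brown adipocytes burn fatty acids in abundant mitochondria and release the energy as heat, because the inner membrane protein UCP1 lets protons return without making ATP. The program is switched on by noradrenaline from sympathetic nerves, which acts through beta-adrenergic receptors and cyclic AMP, and it is maintained by transcription factors and coactivators that drive mitochondrial and fat-burning genes. White adipocytes store triglyceride instead and are known for little or no UCP1, whereas the fat around the rodent thoracic aorta is known to resemble brown fat.

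The rat tissues came from male Dahl SS rats of the strain SS/HsdMcwiCrl, supplied by Charles River and housed at 22 °C and 50% humidity, with no treatment named in the labels. They were subscapular brown adipose tissue (BAT), perivascular adipose tissue of the thoracic aorta (taPVAT), mesenteric perivascular fat (mesPVAT, once with Parse and once with 10x chemistry) and retroperitoneal (RP) fat. The cow tissue was subcutaneous flank white adipose tissue (cow WAT) of female Holstein dairy cattle kept in tie-stalls, also made with Parse chemistry. All samples were snap frozen, the 10x library was labelled batch 1 and the Parse libraries batch 2, and taPVAT nuclei were pelleted at a lower centrifugation speed than those of the white depots, with no speed given for BAT in the sources used here, so that depot, handling and, for the 10x library, chemistry cannot be told apart.

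Each condition was 1 library, the number of animals in a library is not given in the sources used here, and no comparison has a replicate check. Levels are UMIs (unique molecular identifiers, each a captured RNA molecule) summed over the nuclei of a library and given as counts per 1e6 UMIs (CPM). The bracketed ranges are 95% exact intervals, Poisson for levels, binomial for shares of nuclei and conditional for ratios, and they cover counting error only. In such sums, fewer nuclei of a type and less RNA per nucleus cannot be told apart. Depth differed widely: medians were 1706 UMIs per nucleus in BAT, 1246 in taPVAT, 346 in the mesPVAT-labelled Parse library, 213 in the RP-labelled library, 161 in 10x mesPVAT and 3530 in cow WAT, over 2297 to 5887 nuclei. The order of depth between the mesPVAT-labelled and RP-labelled Parse libraries was the reverse of the order given in the study, so the labels of this pair may be exchanged. They were kept as deposited, and every value below belongs to the library so labelled.

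Adipocyte markers are expressed in both brown and white fat, so they cannot check a depot label. A list of them was read in each library. Its summed level was 7735 CPM in BAT, 7334 in taPVAT, 3203 in the mesPVAT-labelled library, 1176 in the RP-labelled library, 8780 in 10x mesPVAT and 1543 in cow WAT. Plin1, which coats the fat droplet, was detected in 69.1%, 60.4%, 22.0%, 9.59%, 11.4% and 17.5% of nuclei in that order, and the summed level was lower in both white Parse libraries of the rat than in the brown ones. Adipoq, the hormone adiponectin, was absent from the cow annotation used.

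The stretches in front of the transcription starts of Ucp1 and Ppargc1a are shown because these genes head the program: cyclic AMP signalling acts on the regulatory DNA of both, and PGC-1alpha, the product of Ppargc1a, is the coactivator most closely tied to heat production. Each line gives the 250 bases before the start in the RefSeq table of the rat build GRCr8, 5′ to 3′ on the strand of the gene. Capitals mark TATAAA, the TATA box, for Ucp1 (chr19:41721422-41721671, minus strand) and TGACGTCA, the full cyclic AMP response element, for Ppargc1a (chr14:63634058-63634307, plus strand).
Ucp1: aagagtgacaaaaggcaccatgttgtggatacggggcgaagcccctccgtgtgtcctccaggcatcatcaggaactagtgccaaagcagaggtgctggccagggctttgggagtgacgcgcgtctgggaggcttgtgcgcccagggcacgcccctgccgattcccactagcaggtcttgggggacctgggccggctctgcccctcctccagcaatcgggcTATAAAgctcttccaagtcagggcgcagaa
Ppargc1a: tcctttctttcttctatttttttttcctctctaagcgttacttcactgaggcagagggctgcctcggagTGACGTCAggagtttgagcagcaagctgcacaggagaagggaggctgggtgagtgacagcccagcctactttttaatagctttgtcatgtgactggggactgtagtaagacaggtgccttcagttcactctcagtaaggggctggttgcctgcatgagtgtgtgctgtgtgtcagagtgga

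In Ucp1 the TATA box lay at -30 to -25 from the start, and the shorter core of the cyclic AMP element, TGACG, at -137 to -133. In Ppargc1a the full element lay at -181 to -174. Of 27457 rat promoters of the same length searched on both strands, 13.1% held TATAAA, 19.0% held TGACG, which is contained in the full element, and 1.7% held TGACGTCA. Of the 10 genes, 9 had an entry in the table (Cpt1b had none). TATAAA was found in Ucp1 and Dio2, TGACG in Ucp1 and Ppargc1a, and TGACGTCA in Ppargc1a. The element of the estrogen-related receptors, TCAAGGTCA, and the direct-repeat PPAR element were found in none of the 9 windows and in 0.368% and 0.0546% of all promoters. These are matches of letters and say nothing of a factor's binding.

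Ucp1, the uncoupling protein itself, was carried almost wholly by the brown depots. It reached 2072 CPM (2037 to 2108) in BAT and 1782 CPM (1745 to 1819) in taPVAT, against 63.4 CPM (51.8 to 76.7) in the mesPVAT-labelled library and 89.9 CPM (70.8 to 112.5) in the RP-labelled library. Nuclei of each white Parse library were split into 2 wells for their first barcode. Ucp1 was at 37.0 and 84.1 CPM in the wells of the mesPVAT-labelled library and at 49.1 and 110.7 CPM in those of the RP-labelled library. The 10x mesPVAT library held 1 UMI of Ucp1 (0.81 CPM, 0.02 to 4.5) and cow WAT held 11 (0.65 CPM, 0.33 to 1.17). The brown libraries therefore stood above all others, the white Parse libraries lay between, and the 10x and cow values overlapped within counting error. A UMI of Ucp1 was found in 62.7% of BAT nuclei and 52.5% of taPVAT nuclei, against 3.17% and 2.46% in the mesPVAT-labelled and RP-labelled libraries. Nuclei were then thinned to 200 UMIs to make depth equal, and those with fewer were left out, which kept all nuclei of BAT and taPVAT, 2552 of 3028 in the mesPVAT-labelled library, 1503 of 2805 in the RP-labelled library and 2099 of 5887 in 10x mesPVAT. The shares among these deeper nuclei were 25.3% in BAT, 20.1% in taPVAT, 1.41% (0.99 to 1.95) in the mesPVAT-labelled library and 1.80% (1.19 to 2.60) in the RP-labelled library, and 0 of 2099 in 10x mesPVAT. Single nuclei held up to 97 UMIs of Ucp1 in BAT and 74 in taPVAT, and no more than 2 and 4 in the white Parse libraries.

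**Figure D1:**
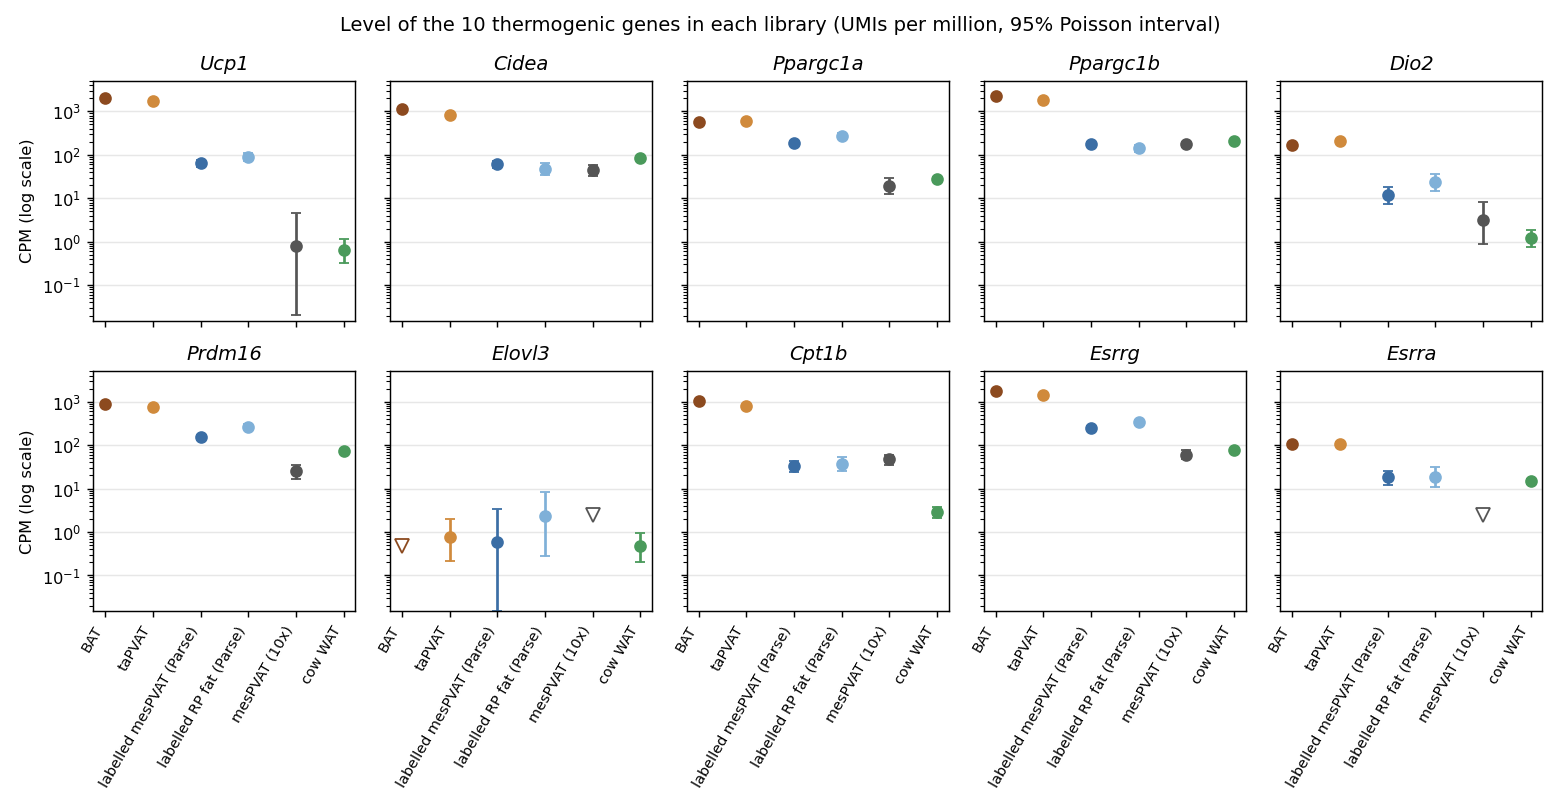
Level of each of the 10 genes in each library, in CPM on a log axis; points are single libraries, bars 95% Poisson intervals, and open triangles the limit that 0 UMIs allows (3 UMIs of the library total). For all genes but Elovl3 the BAT and taPVAT points lie above the other 4, with Ucp1 at 2072 and 1782 CPM against at most 89.9.

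Cidea encodes a protein that fuses lipid droplets and is abundant in brown fat. Its level was 1127 CPM in BAT, 839 in taPVAT, 60.4 in the mesPVAT-labelled library, 47.3 in the RP-labelled library, 44.4 in 10x mesPVAT and 86.9 in cow WAT. The 3 white rat libraries overlapped within counting error, and cow WAT was 1.44-fold (1.18 to 1.78) above the highest of them.

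The coactivators differed from each other in how far white fat fell below brown. Ppargc1a was at 556.8 CPM in BAT, 600.0 in taPVAT, 185.3 in the mesPVAT-labelled library, 274.5 in the RP-labelled library, 19.4 in 10x mesPVAT and 28.2 in cow WAT. It was one of the genes with more RNA in taPVAT than in BAT, by 1.08-fold (1.03 to 1.13). Ppargc1b, which encodes PGC-1beta and is tied to mitochondrial content, was at 2309 CPM in BAT, 1783 in taPVAT, 178.7 in the mesPVAT-labelled library, 143.1 in the RP-labelled library, 177.8 in 10x mesPVAT and 207.9 in cow WAT. For Ppargc1b the white libraries lay close together: the 10x value was within counting error of both white Parse values.

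Dio2 and Prdm16 stand for hormone activation and for cell identity. Dio2, the deiodinase that makes active thyroid hormone inside the cell, was at 203.5 CPM in taPVAT and 167.6 in BAT, a fold of 1.21 (1.11 to 1.32) in favour of taPVAT. It was at 12.1 CPM in the mesPVAT-labelled library and 23.7 in the RP-labelled library, each from 20 UMIs, at 3.23 CPM (4 UMIs) in 10x mesPVAT and at 1.25 CPM in cow WAT. Prdm16, a transcription factor that fixes brown identity, was at 879.2 CPM in BAT, 754.7 in taPVAT, 152.1 in the mesPVAT-labelled library, 265.0 in the RP-labelled library, 25.1 in 10x mesPVAT and 75.1 in cow WAT.

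Cpt1b carries long-chain fatty acids into mitochondria in muscle and brown fat. It reached 1033 CPM in BAT and 811.9 in taPVAT, against 32.6 in the mesPVAT-labelled library, 36.7 in the RP-labelled library, 46.9 in 10x mesPVAT and 2.91 in cow WAT. The 2 wells of the first barcode gave 23.3 and 39.9 CPM in the mesPVAT-labelled library and 14.0 and 48.2 CPM in the RP-labelled library. The 3 white rat values overlapped within counting error, and the mesPVAT-labelled Parse library was 11.2-fold (7.46 to 16.8) above the cow. Striated muscle also uses Cpt1b. The summed level of a list of 12 striated muscle genes was 357.1 CPM in BAT, 452.3 in taPVAT, 528.8 in the mesPVAT-labelled library, 685.0 in the RP-labelled library, 106.7 in 10x mesPVAT and 127.5 in cow WAT, and the part of muscle RNA in the Cpt1b values was not tested. Of the 12, 12 were detected in BAT and 11 in taPVAT, where Myh4 was at 0, and the most abundant were Neb in BAT (147.2 CPM) and Ttn in taPVAT (153.9 CPM).

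Esrrg and Esrra encode estrogen-related receptors, orphan nuclear receptors that work with the PGC-1 coactivators on mitochondrial genes. Esrrg was at 1782 CPM in BAT, 1456 in taPVAT, 246.9 in the mesPVAT-labelled library, 333.6 in the RP-labelled library, 60.6 in 10x mesPVAT and 79.2 in cow WAT. Esrra was at 106.5 CPM in BAT and 107.3 in taPVAT, a pair within counting error, and at 18.1 and 18.9 CPM in the mesPVAT-labelled and RP-labelled libraries and 14.6 in cow WAT, which also overlapped. In 10x mesPVAT Esrra had 0 UMIs, which allows up to 2.42 CPM. The annotated span of Esrra touches that of its neighbour Trmt112, and how reads in such overlaps were assigned is not given in the sources used here.

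Elovl3, a fatty acid elongase known to be induced by cold in brown fat, was hardly detected anywhere. BAT held 0 UMIs of it, which allows up to 0.475 CPM or 0.111% of nuclei, taPVAT 4, the mesPVAT-labelled and RP-labelled libraries 1 and 2, 10x mesPVAT 0 and cow WAT 8. No difference in Elovl3 was detectable at this depth, no fold is given for it, and it is left out of the counts below, which cover the other 9 genes.

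Brown and white depots of the rat were compared within the Parse chemistry. All 9 genes with at least 20 UMIs over the pair of libraries were at least 2-fold higher in BAT than in the mesPVAT-labelled library, where 9.86% of 19911 genes were, with a median fold of 12.9 for the 9 and 0.52 for all genes tested. The count was again 9 of 9 for BAT over the RP-labelled library (16.0% of genes, medians 7.08 and 0.54), for taPVAT over the mesPVAT-labelled library (9.96%, 9.98 and 0.61) and for taPVAT over the RP-labelled library (16.6%, 8.60 and 0.62). The 4 comparisons share libraries, so they are not independent of each other.

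Ucp1 was 32.7-fold (27.0 to 40.0) higher in BAT and 28.1-fold (23.2 to 34.4) higher in taPVAT than in the mesPVAT-labelled library, and under other settings the BAT fold ran from 15.4 to 104. Its folds over the RP-labelled library were 23.1 (18.4 to 29.3) and 19.8 (15.8 to 25.2). Cpt1b was within counting error of Ucp1, with BAT folds of 31.7 (24.3 to 42.2) and 28.2 (19.8 to 41.5) and taPVAT folds of 24.9 and 22.1. Cidea was 18.7-fold and 23.8-fold higher in BAT and 13.9-fold and 17.7-fold higher in taPVAT, again over mesPVAT and RP fat in that order. Ppargc1b gave 12.9 and 16.1 in BAT and 9.98 and 12.5 in taPVAT, and Dio2 gave 13.9 and 7.08 in BAT and 16.9 and 8.60 in taPVAT. By point value these 5 genes thus differed by 7-fold or more in every comparison, while the remaining 4 did not. For Dio2 this split is within counting error. Its BAT fold over RP fat, from 20 white UMIs, had an interval of 4.56 to 11.65. That interval overlapped those of Esrra (3.44 to 9.90) and Esrrg (4.7 to 6.0) in the same comparison. Esrrg was 7.22-fold and 5.34-fold higher in BAT and 5.90-fold and 4.36-fold in taPVAT, Esrra 5.88-fold and 5.63-fold in BAT and 5.92-fold and 5.67-fold in taPVAT, and Prdm16 5.78-fold and 3.32-fold in BAT and 4.96-fold and 2.85-fold in taPVAT. Ppargc1a had the lowest folds, 3.01-fold (2.67 to 3.39) and 2.03-fold (1.78 to 2.33) in BAT and 3.24-fold (2.88 to 3.65) and 2.19-fold (1.91 to 2.51) in taPVAT.

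The adipocyte marker Plin1 itself was 1.94-fold (1.86 to 2.03) higher in BAT than in the mesPVAT-labelled library and 5.23-fold (4.74 to 5.79) higher than in the RP-labelled library, and Adipoq 2.32-fold and 4.34-fold. Against mesPVAT all 9 genes exceeded these ratios by point value, whereas against RP fat Ppargc1a and Prdm16 fell below both of them. Against RP fat the BAT folds of Esrrg, Esrra and Dio2 were within counting error of that of Plin1. For taPVAT over RP fat, Esrrg at 4.36 (3.87 to 4.93) lay below Plin1 at 5.095 (4.61 to 5.64), with overlapping intervals. The part of the adipocyte share in the folds was not tested. Among Plin1-positive nuclei alone, all 9 genes were at least 2-fold higher in the 4 comparisons, on few UMIs in RP fat. The 269 such nuclei of the RP-labelled library held 10 UMIs of Ucp1, 6 of Cpt1b and 3 of Cidea. They held 0 of Dio2 and 0 of Esrra, whose folds there rest on the floor of 3 counts. Counting each nucleus equally, as the mean of its own CPM, left 8 of the 9 above 2-fold and took Ppargc1a to 1.92 and 1.94 over mesPVAT and 1.47 and 1.48 over RP fat, for BAT and taPVAT respectively.

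**Figure D2:**
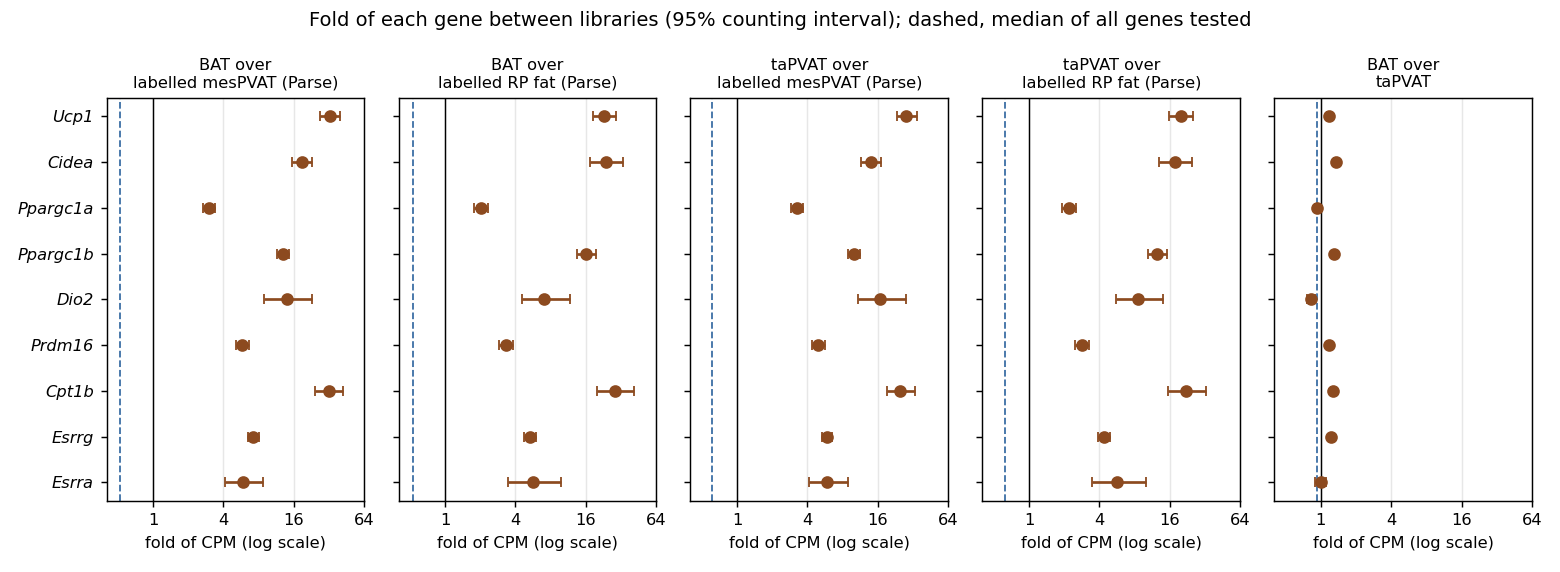
Fold of each gene between pairs of rat Parse libraries on a log axis, with 95% counting intervals; the dashed line is the median of all genes tested and the solid line marks no difference. All 9 genes lie to the right of 2 in the brown over white panels, from 2.03 for Ppargc1a to 32.7 for Ucp1, and within 0.82 to 1.34 in the BAT over taPVAT panel.

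Gene length moved with these folds. A RefSeq span was found for 13970 of the 19911 genes tested between BAT and the mesPVAT-labelled library (70.2%). Their median fold was 0.81, against 0.52 for all genes tested. Among genes with a span, the median fold of BAT over that library was 0.98 for spans under 10 kb, the class of Ucp1 (8.07 kb, chr19:41713350-41721421) and Cpt1b (9.5 kb). It was 0.29 for the 563 genes over 300 kb, the class of Ppargc1a (656 kb), Esrrg (618 kb) and Prdm16 (324 kb). Against the RP-labelled library these medians were 1.27 and 0.22. Among the genes over 300 kb, 5.51% were at least 2-fold higher in BAT than in the mesPVAT-labelled library and 6.57% than in the RP-labelled library, and the 3 long members were among them. For Ppargc1a the promoter window shown above (chr14:63634058-63634307) lies inside its annotated span (chr14:63073505-63729215). The 656 kb span therefore begins upstream of the start shown, and a transcript from that start is shorter. The part of gene length in the order of the 9 folds was not tested.

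BAT and taPVAT were close, with folds of the 9 genes from 0.82 to 1.34. None of the 9 genes differed 2-fold, where 7.07% of all genes did, and 9 genes are too few to tell 0 from that share. The median fold of BAT over taPVAT was 1.17 for the 9 and 0.93 for all genes. By this fold the 9 ranked from above 33.9% of all genes tested (Dio2) to above 90.5% (Ppargc1b) and 92.2% (Cidea). Cidea, at 1.34 (1.29 to 1.40), Ppargc1b, at 1.3 (1.26 to 1.33), Cpt1b, at 1.27 (1.22 to 1.32), Esrrg, at 1.22 (1.19 to 1.26), Prdm16, at 1.17 (1.12 to 1.21), and Ucp1, at 1.16 (1.13 to 1.20), had more RNA in BAT. Ppargc1a and Dio2 had more in taPVAT, and Esrra lay at 0.99 (0.89 to 1.11). The gaps of all but Esrra exceed counting error. The 3 wells into which BAT nuclei were split for their first barcode gave Ucp1 values from 1663 to 2383 CPM and the 3 taPVAT wells from 1658 to 1891. For Ppargc1a the wells ran from 485.2 to 603.2 CPM in BAT and from 567.0 to 685.3 in taPVAT, and for Dio2 from 147.5 to 184.8 and from 180.1 to 231.4. The wells of the libraries thus overlapped for these 3 genes and for Esrra, and did not for the other 5.

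The wider thermogenic network was read from 4 further lists. Of 17 fatty acid oxidation genes, all measured, 14 were at least 2-fold higher and 1 lower in BAT than in the mesPVAT-labelled library (median fold 7.32), and 16 were higher and 0 lower in taPVAT (median 6.80). Of all genes, 9.86% were higher and 48.6% lower in BAT than in that library, and 9.96% higher and 45.0% lower in taPVAT. Against the RP-labelled library these shares were 16.0% and 48.8% in BAT and 16.6% and 46.0% in taPVAT. Of 8 uncoupling and respiratory chain genes 7 were measured, and 6 of them were higher in each comparison of a brown with a white depot, with 1 lower in BAT than in either white library and 0 lower in taPVAT. Of 26 brown identity genes and regulators, 15 of 24 measured were higher and 1 lower in BAT than in the mesPVAT-labelled library, and 14 of 23 higher and 0 lower in taPVAT. Against the RP-labelled library the same list gave 15 of 23 higher and 1 lower in BAT and 16 of 23 higher and 3 lower in taPVAT, where the lower ones were Tbx15, Eva1a and Esrrb. Of 10 genes of adrenergic activation and lipolysis, 6 of 9 measured were higher and 0 lower than in the mesPVAT-labelled library, for BAT and for taPVAT alike. The medians over all genes in these comparisons were 0.52 and 0.61. The gene lower in BAT than in the mesPVAT-labelled library was Cpt1a in the first list, Ucp2, a relative of Ucp1, among the uncoupling genes (4.75 against 16.3 CPM) and Esrrb, an estrogen-related receptor, among the brown identity genes (24.1 against 51.9 CPM). Between BAT and taPVAT 1 gene of the 4 lists was 2-fold higher in BAT and 2 were lower, where 1.1% and 5.97% of all genes were. The higher one was Tbx15, a T-box transcription factor (58.6 against 19.0 CPM), and the lower ones were Acsl5, an acyl-CoA synthetase (44.6 against 132.5 CPM), and Ucp2 (4.75 against 13.7 CPM). Esrrb, Tbx15, Eva1a, Acsl5 and Ucp2 are named after their values were seen.

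Gnas, the G protein subunit that links beta-adrenergic receptors to cyclic AMP, led the lists with 3318 CPM in BAT and 3156 in taPVAT against 246.3 and 210.6 in the mesPVAT-labelled and RP-labelled libraries, so that the lower brown value was 12.8 times the higher white one. Hadhb, a subunit of the mitochondrial enzyme that shortens long fatty acids, was at 512.0, 527.4, 35.0 and 40.2 CPM in the same order. Pdk4, which turns mitochondria from glucose to fat, was at 1389, 1083, 85.1 and 59.2 CPM. Gk, the glycerol kinase that lets brown adipocytes reuse glycerol, was at 568.1, 660.8, 49.5 and 53.2 CPM. At the other end, Cpt1a, the liver-type counterpart of Cpt1b, was lower in brown fat, at 14.4 and 26.3 CPM against 42.9 and 50.9. Zic1, a marker of classical brown fat, was at 2.53 CPM in BAT and 0 in taPVAT, against 4.23 and 2.37, from 25 UMIs in all.

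White fat genes did not move as a group. Of the 8 measured in the pair, 1 was at least 2-fold higher and 5 lower in BAT than in the mesPVAT-labelled library. Of all genes, 9.86% were higher and 48.6% lower in that pair. Against the RP-labelled library, where 16.0% of all genes were higher and 48.8% lower, 2 of 6 were higher and 2 lower. The positional genes Hoxc9 (0.47 CPM in BAT, 0.39 in taPVAT, 15.7 and 11.8 in the white libraries) and Hoxc8 (0, 2.16, 13.3 and 3.55 CPM), the mesothelial and visceral factor Wt1 (4.27, 12.4, 47.7 and 33.1 CPM) and the amino acid transporter Slc7a10 (11.6, 13.7, 73.6 and 30.8 CPM) had lower values in both brown libraries than in both white ones. Hoxc8 and Hoxc9 rest on 36 and 41 UMIs over the 4 rat Parse libraries. The Hoxc8 value in the RP-labelled library equals the limit of 3 UMIs, so its order against taPVAT is weakly based. Lep, which encodes leptin, lay at 25.0, 31.2, 80.3 and 14.2 CPM, Npr3 at 123.6, 185.7, 196.8 and 48.5, and Nnmt at 41.2, 43.7, 46.5 and 26.0. Retn, which encodes resistin, was higher in brown fat, at 174.6 and 164.5 CPM against 41.0 and 13.

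The genes whose levels over the 5 rat libraries ran most like those of Ucp1 were ranked among 6748 genes with at least 100 UMIs in both brown libraries, by the Euclidean distance of centred log2(CPM + 10) values. The 5 nearest outside the 10 genes were Gnas (distance 1.57), Mybpc2, a myosin-binding protein of fast muscle (1.79), Akr1c15, an aldo-keto reductase (2.34), Ntrk3, a neurotrophin receptor (2.35), and Gk (2.38). Of the genes described here Esrrg was nearest, at 2.68.

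The 10x library of mesPVAT and the mesPVAT-labelled Parse library gave different levels for most of the genes, as for most genes measured in both. In the 10x library 6 of the 9 genes were at least 2-fold lower, where 32.8% of 12378 genes were, and 3 were within 2-fold. Counted in either direction, 55.4% of all genes were at least 2-fold apart, so a gap of this size is not particular to the 9. Ucp1 was at 0.013 (0.00032 to 0.073) of its Parse level, Ppargc1a at 0.10 (0.07 to 0.16), Prdm16 at 0.16 (0.11 to 0.24), Esrrg at 0.25 (0.19 to 0.31) and Dio2 at 0.27 (0.07 to 0.80), and Esrra, with 0 UMIs, was at or under 0.13 by the limit of 3 UMIs. Cidea, at 0.74 (0.52 to 1.03), Ppargc1b, at 1.00 (0.83 to 1.19), and Cpt1b, at 1.44 (0.98 to 2.12), had intervals that include 1. Adipoq moved the other way, 12.2-fold (10.1 to 14.8) higher with 10x, while Plin1 was at 0.51 (0.47 to 0.56). Of the 105 Parse UMIs of Ucp1, 84 lay in nuclei that share later barcode wells with a brown nucleus, as described below. The other nuclei of that library were at 19.9 CPM. Chemistry, nuclei isolation protocol, batch, sorting and alignment differed between the 10x and Parse libraries and cannot be told apart. If the labels of the white Parse pair were exchanged, depot differed as well. Whether they came from the same animals is not given in the sources used here.

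Within the brown depots the genes were found in the nuclei that held Plin1. In BAT, Ucp1 was at 2432 CPM in the 1866 nuclei with a Plin1 UMI and at 250.5 CPM in the 833 without one, a fold of 9.71 (8.59 to 11.0). In taPVAT it was at 2149 CPM in 1635 nuclei and 281.4 CPM in 1073, a fold of 7.64 (6.78 to 8.63). All 9 genes were at least 2-fold higher in Plin1-positive nuclei of both depots, where 12.5% of genes were in BAT and 9.51% in taPVAT. The BAT folds were 11.8 for Esrrg, 11.4 for Dio2 and for Cpt1b, 8.75 for Ppargc1b, 6.89 for Ppargc1a, 6.11 for Cidea, 3.13 for Prdm16 and 3.04 for Esrra. In taPVAT they ran from 3.37 for Esrra and 4.26 for Prdm16 to 9.05 for Cpt1b and 10.8 for Dio2. Adipoq itself was 3.39-fold and 3.05-fold higher in these nuclei, and the intervals of Prdm16 and Esrra overlapped that of Adipoq in both depots. Plin1-positive nuclei were also deeper, with medians of 2202 against 903 UMIs in BAT and 1890 against 713 in taPVAT.

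Adipoq divided the nuclei far less. In BAT its 659 positive and 2040 negative nuclei had folds of 1.11 (Prdm16) to 1.32 for the 9 genes, and in taPVAT the range was 1.13 to 1.32 over 510 and 2198 nuclei. None reached 2-fold in either depot, where 0.62% and 0.606% of genes did, and Plin1 itself reached 1.23 and 1.33. Adipoq was found in 24.4% of BAT and 18.8% of taPVAT nuclei, so most nuclei with adipocyte markers held no Adipoq UMI and fell on its negative side.

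**Figure D3:**
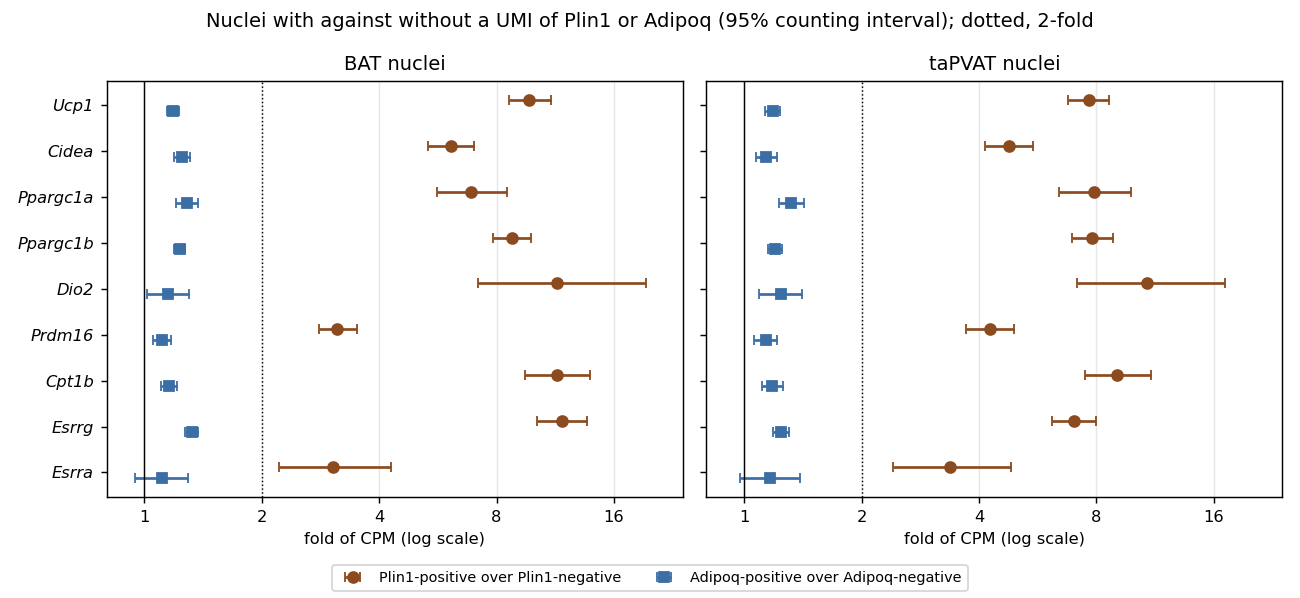
Fold of summed CPM between nuclei with and without a UMI of Plin1 (circles) or of Adipoq (squares) in BAT and taPVAT, on a log axis with 95% counting intervals; the dotted line marks 2-fold. All Plin1 folds lie above it, from 3.04 to 11.8 in BAT, and all Adipoq folds below it, from 1.11 to 1.32.

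Co-detection was read at equal depth. After thinning to 500 UMIs, 2584 BAT nuclei remained, of which 1414 held Plin1, and Ucp1 was found in 61.8% (59.2 to 64.4) of these and in 25.5% (23.0 to 28.1) of the others. In taPVAT, with 2322 nuclei and 1150 Plin1-positive, the shares were 54.1% and 24.2%. Read from the other side, 74.6% of Ucp1-positive nuclei in BAT and 68.7% in taPVAT also held Plin1 (90.4% and 85.5% with all UMIs). Ppargc1b was found in 66.1% against 28.7% of BAT nuclei with and without Plin1, Esrrg in 55.8% against 22.2%, Cidea in 44.3% against 19.6%, Cpt1b in 44.1% against 16.2%, Prdm16 in 33.6% against 18.2%, Ppargc1a in 23.0% against 10.5%, Dio2 in 8.70% against 2.74% and Esrra in 5.59% against 3.50%. Each gene was more frequent beside Plin1, in taPVAT as in BAT. For Adipoq the corresponding shares for Ucp1 were 52.0% (44.3 to 59.7) against 44.9% in BAT and 40.2% against 38.9% in taPVAT. The share beside Adipoq was the lower one for Ppargc1a, Prdm16 and Esrra in BAT, with ratios of 0.93, 0.91 and 0.86, and for Ppargc1a, Ppargc1b and Dio2 in taPVAT, with ratios of 0.93, 0.98 and 0.69. The intervals of both shares overlapped for each of these genes. In BAT the share beside Adipoq was higher, with intervals apart, for Esrrg and Cpt1b. For Esrrg it was 53.76% (46.03 to 61.35) against 39.65% (37.69 to 41.64), and for Cpt1b 41.62% (34.19 to 49.34) against 30.73% (28.9 to 32.62). In taPVAT the intervals of Esrrg and Cpt1b overlapped.

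At the same depth a Plin1-positive BAT nucleus held a median of 4 of the 10 genes, and 5.87% of such nuclei held none and 27.8% held 5 or more. A Plin1-negative BAT nucleus held a median of 1, and 41.8% held none. In taPVAT the medians were 3 and 1, with none found in 8.87% and 45.6%. Within Plin1-positive nuclei the genes occurred together slightly more often than the product of their shares: over 36 pairs of genes the ratio of observed to expected had a median of 1.10 in BAT and 1.17 in taPVAT and lay above 1 for 32 and 34 pairs. The variance of UMIs per nucleus over its mean, which is 1 for pure counting, was 1.5 for Ucp1 and 1.48 for Esrrg in BAT and 1.49 and 1.47 in taPVAT. For Esrra it was 1.04 and 0.96, at means of 0.059 and 0.066 UMIs per nucleus against 1.20 and 1.02 for Ucp1. The ratio nears 1 as the mean falls, so it cannot rank the spread of genes with such unlike means. Depth limits these pair counts, since no more than 500 UMIs were read per nucleus.

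Nuclei were next grouped by marker lists, a nucleus being counted with a list when it held at least 2 UMIs of it and more than of any other. Such groups are ranges and not cell types. In BAT 1746 nuclei (64.7%) fell with the adipocyte list and 512 with the endothelial list, and in taPVAT 1479 (54.6%) and 366, of which 45, 48, 82 and 52 lay at the limit. Ucp1 was at 2580 CPM in BAT nuclei with adipocyte markers and at 327.7 CPM in those with endothelial markers, a fold of 7.87 (6.93 to 8.98), and in taPVAT at 2299 and 310.3 CPM (7.41, 6.27 to 8.81). Endothelial and immune cells are not known to make UCP1, so their level serves as a background: at 500 UMIs, Ucp1 was found in 63.0% of adipocyte-marker nuclei of BAT (median depth 2190 UMIs), 11.7% of endothelial-marker nuclei (1067) and 6.25% of immune-marker nuclei (904). In taPVAT these shares were 57.8%, 10.3% and 6.67%, at depths of 1938, 888 and 745.5 UMIs.

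The same contrast held for the other genes, with folds of adipocyte-marker over endothelial-marker nuclei in BAT of 19.6 (9.89 to 45.4) for Dio2, 11.5 for Esrrg, 11.3 for Ppargc1b, 9.18 for Ppargc1a, 8.91 for Cpt1b, 6.13 for Cidea, 4.61 for Prdm16 and 3.28 for Esrra. In taPVAT they ran from 4.27 for Esrra to 13.2 for Esrrg. Prdm16 differed from the rest in a further group. In BAT nuclei with pericyte and smooth muscle markers it was at 852.4 CPM, close to the 1019 CPM of adipocyte-marker nuclei, a fold of 1.20 (1.07 to 1.34), while for Ucp1 that fold was 5.90 (5.09 to 6.88). The closeness is one of summed UMIs, with 351 of Prdm16 in 54 of 156 such nuclei. At 500 UMIs Prdm16 was found in 21.8% (15.4 to 29.3) of them and in 34.3% (32.0 to 36.6) of adipocyte-marker nuclei. In taPVAT Prdm16 was 2.61-fold (2.04 to 3.38) higher in adipocyte-marker nuclei than in that group.

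**Figure D4:**
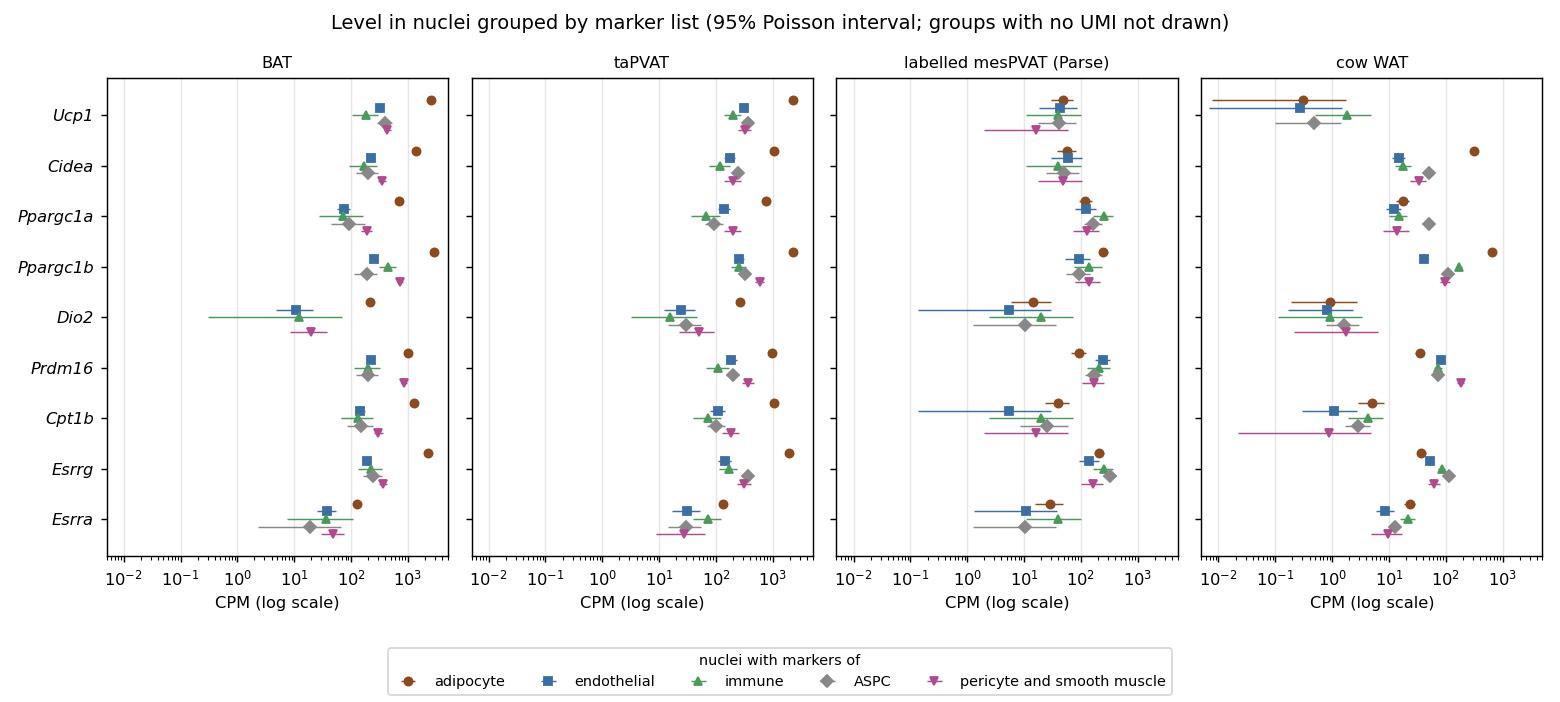
Level of 9 genes in nuclei grouped by marker list in 4 libraries, as CPM on a log axis with 95% Poisson intervals; symbols and colours are the marker lists. In BAT and taPVAT the adipocyte-marker point is the highest for each gene (Ucp1 at 2580 and 2299 CPM), in the mesPVAT-labelled library it overlaps the others for Ucp1, and in cow WAT it is the highest for Cidea and Ppargc1b but not for Prdm16, Ppargc1a and Esrrg.

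In the mesPVAT-labelled library few of the genes were higher with adipocyte markers. Ucp1 was at 47.4 CPM in the 614 nuclei with adipocyte markers and 42.9 CPM in the 231 with endothelial markers, a fold of 1.11 (0.48 to 2.86), although Plin1, which is in the adipocyte list, differed 32.5-fold between the same groups. At 200 UMIs the Ucp1 share was 1.36% (0.59 to 2.66) with adipocyte markers, 0 of 224 with endothelial markers and 1.92% (0.23 to 6.77) with immune markers, beside 0 of 301 with ASPC markers (markers of adipose stem and progenitor cells) and 1 of 159 with pericyte and smooth muscle markers. These intervals overlapped, and no difference was detectable at this depth. Nuclei that fell with no list, at a median of 252 UMIs, held 59 of the 105 Ucp1 UMIs of that library, at 120.6 CPM (91.8 to 155.6), and in the RP-labelled library such nuclei held 56 of 76, at 107.8 CPM. Over endothelial-marker nuclei, Cidea and Ppargc1a gave folds of 0.98 and 0.97, Esrrg 1.48 (0.95 to 2.38), and Prdm16 was lower with adipocyte markers, at 0.37 (0.24 to 0.57). Ppargc1b was 2.72-fold (1.63 to 4.82) higher, and Cpt1b, from 19 UMIs and 1 UMI, 7.31-fold (1.16 to 303.8). Over the immune, ASPC, and pericyte and smooth muscle groups in that order, Ppargc1b gave 1.77, 2.68 and 1.80, with intervals above 1. Cpt1b gave 1.96, 1.53 and 2.43, with intervals that include 1. Esrrg was at 0.64 (0.46 to 0.89) of its ASPC level and Ppargc1a at 0.48 (0.30 to 0.80) of its immune level. That immune level of Ppargc1a rests on 25 UMIs in 10 nuclei. At 200 UMIs Ppargc1a was found in 2.72% (1.56 to 4.38) of nuclei with adipocyte markers and 5.77% (2.15 to 12.1) with immune markers, which overlap. Other folds of Esrrg and Ppargc1a over these groups had intervals that include 1. Between nuclei with and without Plin1 in that library, Ucp1 was at 39.6 and 76.2 CPM, a ratio of 0.52 (0.31 to 0.83), and Ppargc1b at 1.43 (1.13 to 1.81). In the RP-labelled library Ucp1 gave 1.04 and Ppargc1b 1.88 (1.17 to 2.92). Only 140 nuclei of that library fell with the adipocyte list, 78 of them at the limit.

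The UMIs of the brown genes in the white Parse libraries also followed the barcodes. In the Parse chemistry nuclei pass through 3 rounds of wells, the first of which marks the sample, and the later ones mix all samples. No whole barcode was shared between libraries, but 1083 of 3028 nuclei (35.8%) labelled mesPVAT and 1016 of 2805 (36.2%) labelled RP fat had the same later-round wells and the same sublibrary as a BAT or taPVAT nucleus, differing from it by the first-round barcode. Ucp1 was at 139.6 CPM in these nuclei of the mesPVAT-labelled library and at 19.9 CPM in the others, a fold of 7.02 (4.31 to 11.9), and they held 78.1% of its Ucp1-positive nuclei. In the RP-labelled library it was at 186.4 and 41.0 CPM, a fold of 4.55 (2.74 to 7.77), with 66.7% of the positive nuclei. Cpt1b gave 2.76 (1.55 to 5.01) and 4.82 (2.14 to 11.9), Cidea 1.75 (1.16 to 2.65) and 1.97 (1.01 to 3.87), and Ppargc1b 1.62 (1.28 to 2.05) and 2.37 (1.63 to 3.45). Ppargc1a and Prdm16 gave 1.63 and 1.43 in the mesPVAT-labelled library and 1.02 and 1.10 in the RP-labelled library. Genes of other cells differed less: Ptprc of leukocytes gave 0.95 and 1.12 and Ptprb of endothelium 0.86 and 0.95, with intervals that include 1, and Plin1 gave 0.74 (0.67 to 0.81) and 1.23 (1.00 to 1.51).

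**Figure D5:**
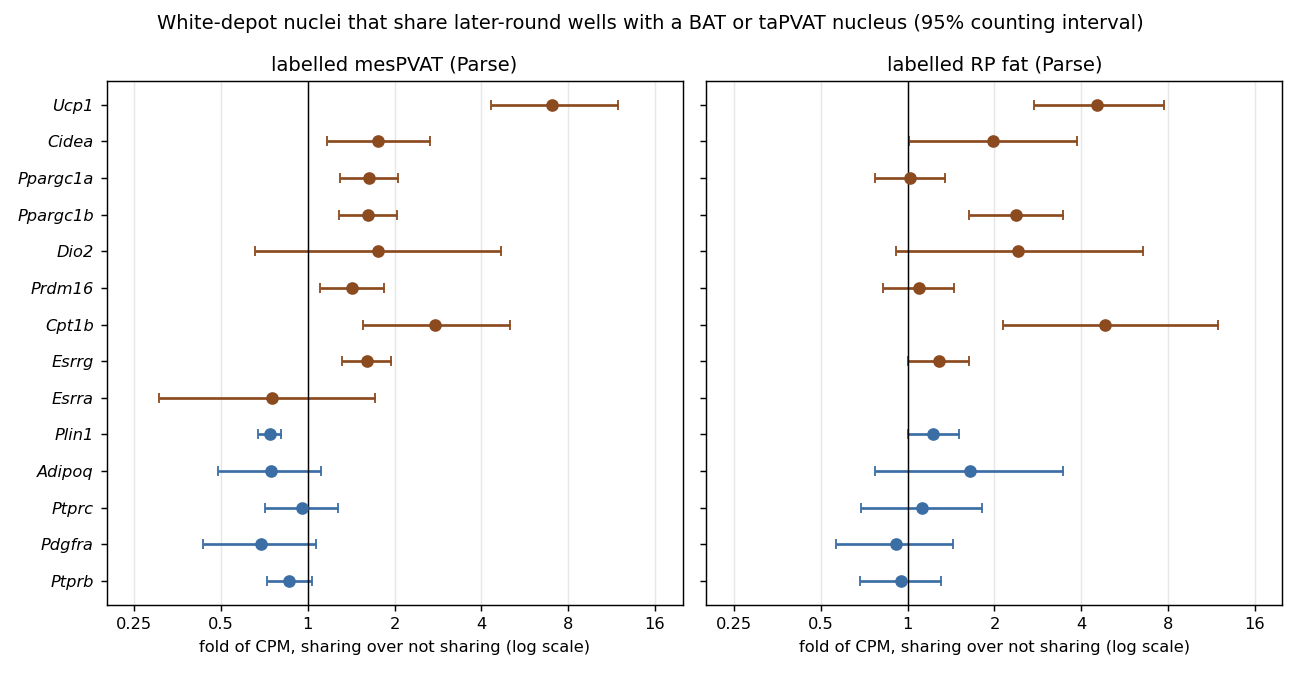
Fold of summed CPM between white-depot nuclei that share later-round wells with a BAT or taPVAT nucleus and those that do not, on a log axis with 95% counting intervals, for thermogenic genes (brown) and for marker genes of adipocytes, leukocytes, progenitors and endothelium (blue). Ucp1 lies farthest to the right in the mesPVAT-labelled library, at 7.02, and at 4.55 in the RP-labelled library.

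The level also depended on which brown nucleus shared the wells. In the mesPVAT-labelled library, Ucp1 was at 229.2 CPM in the 760 nuclei whose brown partner held Ucp1 and at 23.0 CPM in the 323 whose partner did not, a fold of 9.98 (4.39 to 28.0). In the RP-labelled library the values were 259.9 and 50.2 CPM (5.18, 2.07 to 16.7). Without the sharing nuclei all 9 genes were still at least 2-fold higher in brown fat in the 4 comparisons, and the Ucp1 fold rose to 104 and 50.6 for BAT and to 89.5 and 43.5 for taPVAT, over mesPVAT and RP fat in that order. Cpt1b rose to 51.9 and 64.4 for BAT. Ppargc1a was at 3.70 and 2.04. Among endothelial-marker and immune-marker nuclei of the brown libraries, those sharing later-round wells with another brown adipocyte-marker nucleus had Ucp1 at 1.19 (0.81 to 1.70) of the level of the others in BAT and 2.14 (1.52 to 2.96) in taPVAT. This way of grouping nuclei was chosen after the data were seen.

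In cow WAT the genes did not share a pattern across the marker groups. Cidea was at 310.4 CPM in the 182 nuclei with adipocyte markers and 14.8 CPM in the 601 with endothelial markers, a fold of 21.0 (16.0 to 28.1), and Ppargc1b at 654.2 and 41.6 CPM (15.7, 13.3 to 18.6), beside 35.2-fold for Plin1, a gene of the adipocyte list. Esrra was 2.70-fold (1.76 to 4.22) higher with adipocyte than with endothelial markers and at 1.08 (0.74 to 1.60) of its level with immune markers. Prdm16 ran the other way, at 34.9 CPM with adipocyte markers, 82.8 with endothelial markers and 180.9 with pericyte and smooth muscle markers. Ppargc1a was at 17.3 CPM with adipocyte markers and 50.5 CPM with ASPC markers, a ratio of 0.34 (0.25 to 0.46), and Esrrg at 37.1 and 115.5 CPM (0.32, 0.26 to 0.39). Over the same ASPC group Cidea was 6.05-fold and Ppargc1b 5.96-fold higher. Plin1 itself was only 5.2-fold (4.7 to 5.6) higher over that group, with 1895 UMIs beside adipocyte markers and 710 beside ASPC markers. The part of adipocyte RNA in the ASPC group was not tested. Over endothelial, immune, and pericyte and smooth muscle markers, Ppargc1a gave 1.43 (0.95 to 2.17), 1.16 (0.74 to 1.86) and 1.24 (0.70 to 2.31). These intervals include 1. Esrrg gave 0.70, 0.44 and 0.60 over those groups. Ucp1 had 11 UMIs in all.

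The 10x library of mesPVAT had a like split against ASPC markers, on fewer UMIs. In its 2246 nuclei with adipocyte markers, 787 of them at the limit, Ppargc1b was 4.95-fold (2.45 to 11.7) and Cidea 4.63-fold (1.19 to 39.7) higher than in the 547 with ASPC markers. Cpt1b was at 81.7 CPM against 7.05 CPM, from 45 UMIs and 1 UMI, a ratio of 11.6 (1.98 to 467). Esrrg was lower, at 0.46 (0.25 to 0.87). Over endothelial-marker nuclei Ppargc1b gave 2.05 (0.92 to 5.66), an interval that includes 1, and over immune-marker nuclei 4.38 (1.19 to 36.5). Cidea gave 2.05 (0.34 to 83.1) over immune-marker nuclei. With endothelial markers Cidea, Cpt1b and Esrrg had 0 UMIs. The other genes had fewer than 20 UMIs over any such pair of groups and were not compared.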

How the data were processed

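Nuclei were profiled in 5 rat libraries and 1 cow library. The authors deposited UMI counts per gene and nucleus: 5 Parse Evercode libraries filtered by the split-pipe program after alignment (rat reads to GRCr8, cow reads to ARS-UCD1.3), and a 10x library counted with Cell Ranger 7.1.0 per the file header. FastQC and Scanpy are listed in the submitters' processing notes. All deposited nuclei were used, doublets were not removed, and every table column belonged to a mapped sample. Counts were summed per library and scaled to CPM, with exact intervals at the 95% level. A floor of 3 counts was applied to genes at 0. Genes with at least 20 UMIs over a pair were compared, and 2-fold was the limit for a call, because 1 library per condition allows no test. Thinning used seed 20, to 200 or 500 UMIs. Intervals came from scipy 1.17.1, tables from pandas 2.3.3, thinning from numpy 2.4.6 and plots from matplotlib 3.10.9, all under Python 3.11.15, and the code was checked on simulated data. The 10 genes and all lists were chosen with earlier results of these data known. The genes named were the members, Plin1, Adipoq, the 4 highest and 2 lowest of the further lists by the lower brown over the higher white CPM, measured white fat genes with at least 20 UMIs, and the 5 genes nearest to Ucp1. Alternatives covered nuclei, depth, scaling, fold limit, count minimum and sublibrary.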

Additional observations from a re-analysis of the deposited data

How the results depend on the processing

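The counts of genes past 2-fold were recomputed 101 times under other settings, and 100 of these stayed within 1.5 times of the reported count. The exception was the contrast of Adipoq-positive with Adipoq-negative taPVAT nuclei, where unthinned shares of nuclei in place of CPM put 2 genes, Dio2 and Esrra, past 2-fold against 0, and the cause was not tested. Single values moved more often than these counts. Of 455 alternative folds between libraries, 150 lay outside the counting interval of the reported fold or had no such interval. Of 320 alternative CPM values 103 lay outside theirs. The same held for 107 of 120 shares of nuclei, which were thinned to 200 UMIs or counted from 2 UMIs. Of 324 alternative brown over white folds, all were above 1 and 319 were at least 2. The 5 below were all of Ppargc1a, the lowest 1.47 with nuclei weighted equally, and 1 arose without the 5% of nuclei with the most UMIs. The Ucp1 fold of BAT over the mesPVAT-labelled library ran from 15.4 with nuclei weighted equally to 104 without white nuclei that share later-round wells with a brown nucleus, a setting chosen after the data were seen. At 500 UMIs, Ppargc1a, Prdm16 and Esrra in BAT and Ppargc1a, Ppargc1b and Dio2 in taPVAT were found in a smaller share of Adipoq-positive than of Adipoq-negative nuclei, against CPM folds above 1. No paired analysis was possible because each condition is 1 library and the labels carry no shared replicate numbers, and for the same reason no replicate could be left out. UMIs were few or absent for Elovl3 in all libraries and for Esrra and Ucp1 in the 10x library, and the cause was not tested. Depth limits every share of nuclei in the white rat libraries.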
